A study of Mus musculus with 93 samples.

Results

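Neural retinas of 17-month-old female mice were compared between 8 Efemp1ki/ki libraries and 8 wild-type (Efemp1+/+) libraries, 16 of the 93 libraries of the series. The Efemp1ki/ki mouse carries a homozygous knock-in of Efemp1 and is studied as a mouse model of the inherited macular disease Doyne honeycomb retinal dystrophy. The libraries were chosen by the tissue, genotype and age in their sample names. Retinas of both genotypes at 3 and 9 months (8 libraries per group) and posterior eyecups at 17 months (7 Efemp1ki/ki and 8 wild type), which are whole eyes freed of lens and retina, served for comparison. Poly(A) RNA was sequenced from stranded libraries. No label states that every library came from its own mouse, and the p-values then measure only library-to-library spread, which may be technical. The labels also do not name the inserted allele or the strain.

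Efemp1 encodes fibulin-3, a secreted glycoprotein of the extracellular matrix. Complement is a cascade of proteins that tags surfaces for removal: the classical and lectin pathways cleave C4 and C2, the alternative pathway uses factor B, and all of them converge on C3. Complement genes are transcribed within the eye, by glia, microglia and the pigment epithelium among others, and variants in several of them alter the risk of age-related macular degeneration.

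The 16 libraries held 12496378 to 37475492 estimated counts. Depth, the mitochondrial share and the trend of the counts with GC content did not pass a test between genotypes (2-sided exact permutation tests, n = 8 per group, p = 0.983, 0.999 and 0.708). Rod genes summed to 67218 to 81425 CPM (counts scaled to the size of the library) in Efemp1ki/ki and to 70566 to 88551 CPM in wild type, and skeletal muscle genes to 14.8 to 19.2 CPM in Efemp1ki/ki and to 14.9 to 21.1 CPM in wild type. Wild-type library 2 stood apart from its group over all genes. Efemp1ki/ki libraries 5 and 6 and wild-type library 5 stood high in interferon-induced genes, Efemp1ki/ki library 8 in lens genes and Efemp1ki/ki library 4 in corneal genes.

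Efemp1 itself (ENSMUSG00000020467.15, chromosome 11, 28853204 to 28926743, GRCm38) had 50.9 to 84.7 CPM (median 56.3) in Efemp1ki/ki retinas and 46.6 to 62.3 CPM (median 59.9) in wild type, after scaling of the libraries by the trimmed mean of M values (TMM), as for all levels below. The groups overlapped, with a log2 fold change of 0.10 ± 0.09 (SE; edgeR quasi-likelihood test with Benjamini-Hochberg adjustment, adjusted p = 0.65). Counts per gene do not show which allele was read, so they do not check the genotype labels.

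C4b rose in Efemp1ki/ki retinas and was the one gene that passed in every fit of this comparison. It encodes complement component C4 (ENSMUSG00000073418.4, chromosome 17, 34728380 to 34743882, GRCm38). Its level ran from 57.0 to 126.6 CPM (median 80.5) in Efemp1ki/ki and from 31.2 to 43.9 CPM (median 38.6) in wild type. All 8 knock-in retinas lay above all 8 wild-type retinas. The means were 84.7 ± 23.8 CPM for the Efemp1ki/ki group and 37.8 ± 4.91 CPM for wild type (SD, n = 8 each), a log2 fold change of 1.17 ± 0.16 (edgeR, adjusted p = 0.000147). Efemp1ki/ki libraries 6 and 4 had the highest values, 126.6 and 107.9 CPM. C4b passed under all 14 alternative settings and in all 16 fits that left out 1 library, with log2 fold changes from 1.05 to 1.23.

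Over the transcriptome, 70 of 17240 genes passed an adjusted p under 0.05 (0.406%), of which 31 were higher (0.180%) and 39 lower (0.226%) in Efemp1ki/ki. Most of the differences were small: 50 of the 70 had an absolute log2 fold change under 0.35, and 12 had one of at least 0.5. The median log2 fold change was 0.38 among the higher genes and -0.19 among the lower ones. In 46 of the 70 the adjusted p was the same value of 0.0415, close under the threshold. The fits that left out 1 library called 1 to 203 genes, and without Efemp1ki/ki library 6, or wild-type library 1, 2 or 4, C4b alone passed. All 70 kept the sign of their difference in each of these 16 fits. The genes were chosen in a fit that shares all but 1 library with each of these, so this is no independent check.

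**Figure D1:**
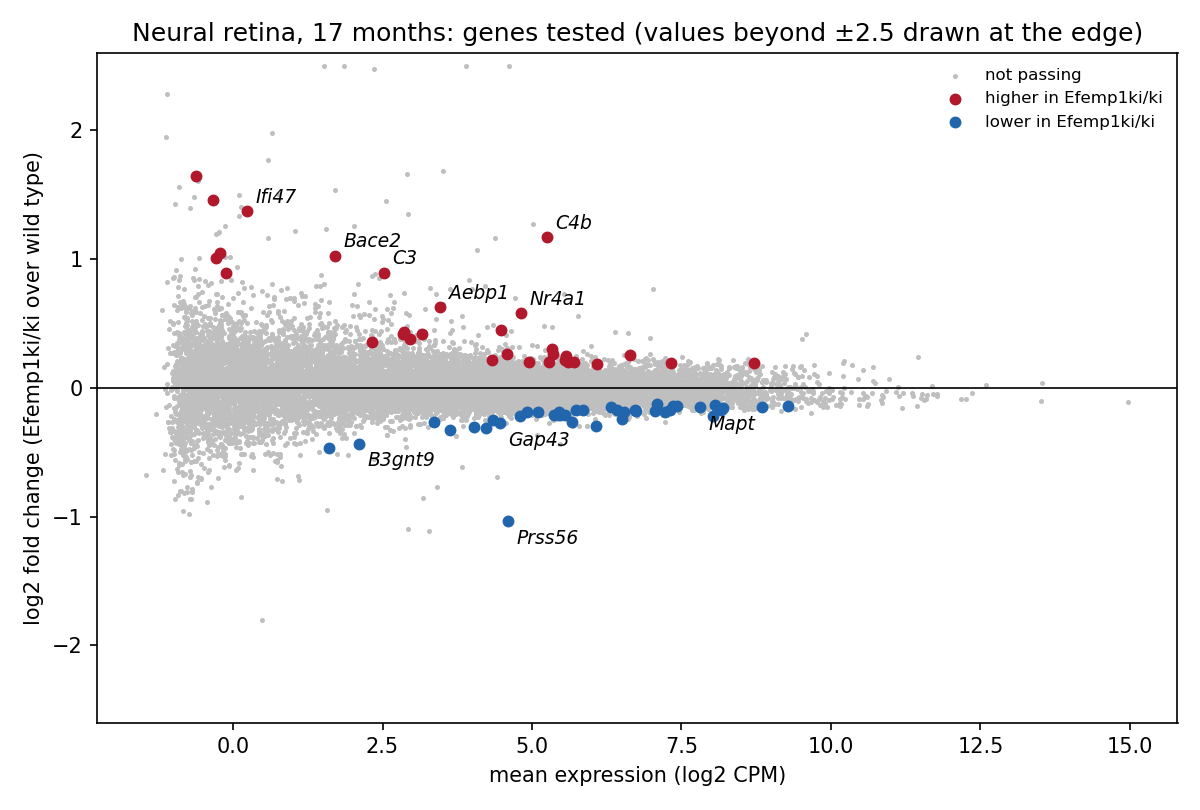
Log2 fold change (Efemp1ki/ki over wild type) against mean expression (log2 CPM) for the 17240 genes tested in 17-month retinas. The 31 genes that passed as higher are red, the 39 that passed as lower are blue and the others grey, with 4 genes beyond ±2.5 drawn at the edge. C4b, at 5.26 log2 CPM, combines a middle level with a log2 fold change of 1.17, whereas most coloured points lie near the zero line.

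C3, on which the complement pathways converge, also rose (ENSMUSG00000024164.15, chromosome 17, 57203970 to 57228136). The Efemp1ki/ki libraries had 5.64 to 16.5 CPM (median 9.27), against 4.68 to 7.15 CPM (median 5.36) in wild type. In 6 of the 8 knock-in retinas the level was above every wild-type retina, and the other two lay within the wild-type range. The log2 fold change was 0.90 ± 0.19 (edgeR, adjusted p = 0.0415). Efemp1ki/ki libraries 4, 6 and 3 were highest, at 16.5, 15.7 and 13.2 CPM. C3 passed in 7 of the 14 alternatives and in 7 of the 16 fits without 1 library, with adjusted p up to 0.297.

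Of the other complement components none passed. The complement component list had 14 members tested of 24: 2 rose (C4b and C3), none fell, and 12 had a positive log2 fold change. At an unadjusted p under 0.05, 9 of the 14 were higher and none lower, where 7.04% of all genes tested were higher, and the list's median log2 fold change was 0.26 beside 0.00 for all genes. Without Efemp1ki/ki library 3 alone 5 of the 14 were higher at that level, beside 6.82% of all genes, and without Efemp1ki/ki libraries 4 and 8 it was 6, beside 6.65%. Upstream in the classical pathway, the proteases encoded by C1s1 and C1ra had log2 fold changes of 0.43 ± 0.14 and 0.37 ± 0.17 (adjusted p = 0.131 and 0.272). The C1q chains that recognise targets stood near zero: C1qa at 0.01 ± 0.10, C1qb at -0.05 ± 0.12 and C1qc at 0.02 ± 0.11, each with the opposite sign in some fits. C2, the protease that joins C4 in the C3 convertase, was at 0.47 ± 0.21 (adjusted p = 0.261).

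In the alternative pathway, Cfb, which encodes factor B, had 7.74 to 10.2 CPM (median 8.76) in Efemp1ki/ki and 6.67 to 8.55 CPM (median 7.84) in wild type. The ranges overlapped, although 4 knock-in retinas lay above all wild-type ones. Its log2 fold change was 0.18 ± 0.08 (ENSMUSG00000090231.10, chromosome 17, 34856374 to 34862518; edgeR, adjusted p = 0.266), and it passed only in the fit on the deposited TPM values (adjusted p = 0.0481). Cfp, encoding properdin, which stabilises the alternative convertase, was at 0.21 ± 0.09 (adjusted p = 0.264), and C8g, a chain of the terminal complex, at 0.30 ± 0.11 (adjusted p = 0.163). Among the complement regulators, 11 tested, none passed, and the smallest adjusted p was that of Cd46, at 0.22 ± 0.09 (adjusted p = 0.202).

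C4a is a near-identical copy of C4b, so the counting could have split reads between them, and its values are uncertain; it was picked after its values were seen. It had 3.41 to 6.41 CPM in Efemp1ki/ki and 2.21 to 4.52 CPM in wild type, with 4 knock-in retinas above all wild-type ones. Its log2 fold change was 0.32 ± 0.13 (edgeR, adjusted p = 0.225). Among knock-in retinas C4a was lowest in libraries 4 and 6 (3.41 and 3.56 CPM), where C4b was highest. With both tissues scaled together, C4a averaged 1.71 CPM in 17-month knock-in eyecups and 3.99 CPM in knock-in retinas. The wild-type averages were 1.67 and 3.15 CPM. C4b averaged 426 and 74.8 CPM in the knock-in tissues, against 377 and 33.3 CPM in the wild-type ones. Whether C4b reads were counted as C4a was not tested.

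**Figure D2:**
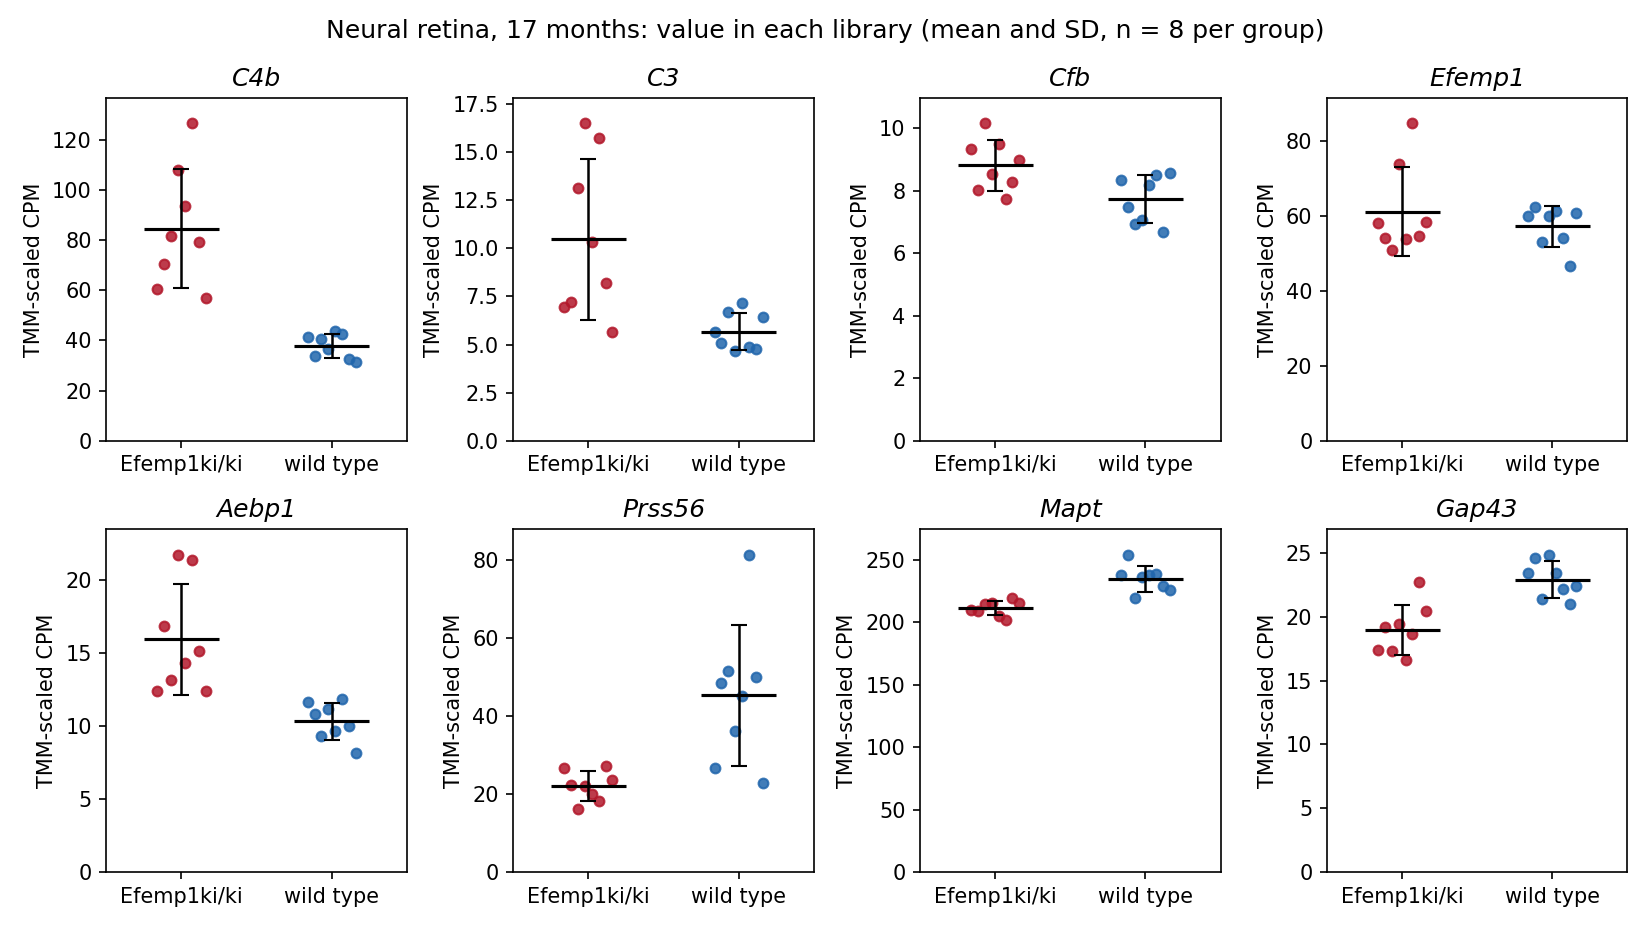
TMM-scaled CPM of 8 genes in each 17-month retina, Efemp1ki/ki in red and wild type in blue, with the mean and SD of each group (n = 8). The red and blue points separate for C4b, Aebp1 and Mapt and overlap for Efemp1 and Cfb; for Prss56 the wild-type libraries spread from 22.9 to 81.5 CPM.

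The difference in C4b was seen at 17 months beside smaller ones at younger ages. At 3 months C4b averaged 20.3 ± 1.96 CPM in Efemp1ki/ki, against 18.6 ± 3.68 CPM in wild type. At 9 months the averages were 40.3 ± 13.1 CPM for Efemp1ki/ki and 25.3 ± 7.05 CPM for wild type (SD, n = 8 each). The log2 fold changes were 0.14 ± 0.18 at 3 months, 0.67 ± 0.17 at 9 months and 1.17 ± 0.16 at 17 months, and neither younger age passed over all genes (edgeR, adjusted p = 0.717 and 0.722). The test of the difference between the 17- and 3-month effects gave 1.03 ± 0.25 for C4b, which had the smallest unadjusted p of all genes in that test, 0.00014, and did not pass after adjustment (edgeR, adjusted p = 1.00).

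C3 averaged 3.15 ± 0.655 CPM in Efemp1ki/ki, against 3.64 ± 1.05 CPM in wild type, at 3 months. At 9 months it averaged 5.76 ± 1.77 CPM in Efemp1ki/ki, against 4.76 ± 1.22 CPM in wild type. The log2 fold changes were -0.15 ± 0.23 at 3 months and 0.28 ± 0.21 at 9 months, and the 17- minus 3-month difference was 1.05 ± 0.30 (edgeR, adjusted p = 1.00). No gene passed for 17 against 3 months or for 17 against 9 months by edgeR, DESeq2, limma voom or limma on TPM. At an unadjusted p under 0.05 edgeR gave 690 genes (4.00%) and 1485 genes (8.61%).

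**Figure D3:**
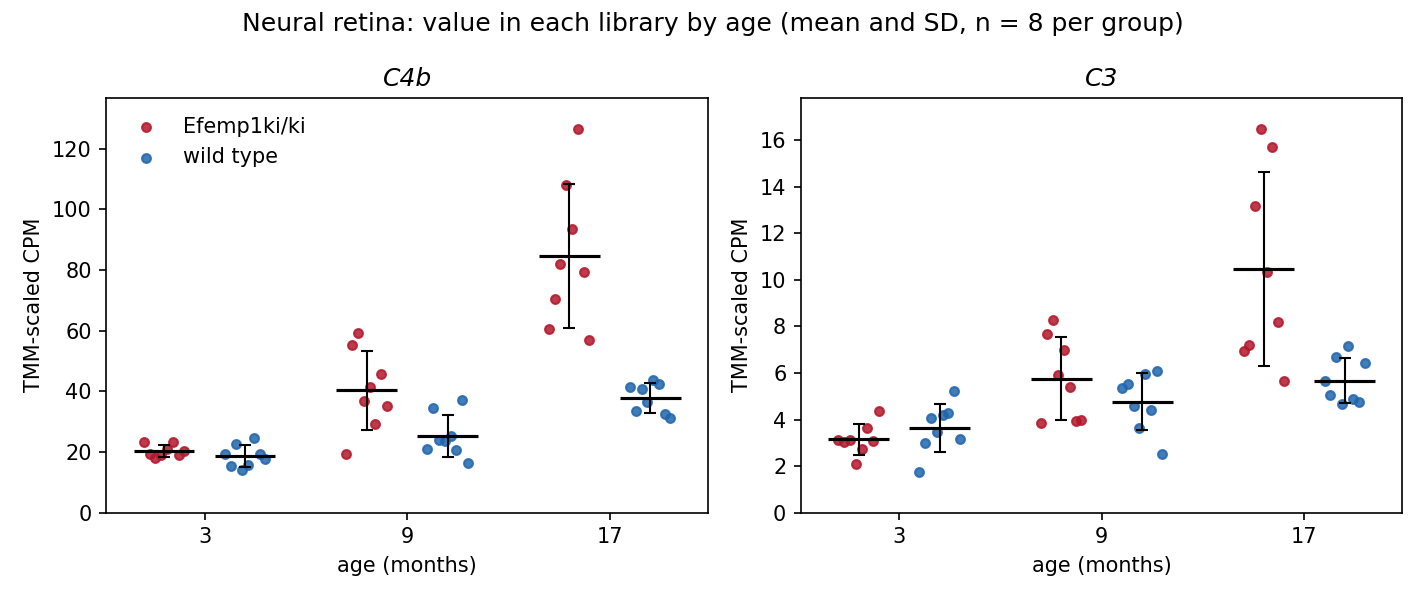
TMM-scaled CPM of C4b and C3 in each retina at 3, 9 and 17 months, Efemp1ki/ki in red left of wild type in blue at each age, with mean and SD (n = 8). For C4b the groups overlap at 3 and 9 months and are separate at 17 months, where the means are 84.7 CPM in Efemp1ki/ki, against 37.8 CPM in wild type.

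In the posterior eyecup at 17 months, C4b was abundant in both genotypes, at 426 ± 101 CPM in Efemp1ki/ki (n = 7) and 377 ± 44.9 CPM in wild type (n = 8) when both tissues were scaled together. On that scale the retinas averaged 74.8 ± 21.3 CPM in Efemp1ki/ki, against 33.3 ± 4.31 CPM in wild type. Its log2 fold change in the eyecup was 0.15 ± 0.16 (edgeR, adjusted p = 0.739). The retinal effect exceeded that of the eyecup by 1.01 ± 0.22, which missed the threshold (edgeR on both tissues, adjusted p = 0.0633). Of 19210 genes, 1 passed this test of a tissue difference (0.00521%), and 1889 (9.83%) had an unadjusted p under 0.05. It was Ppp1r15a, which encodes a stress-induced subunit that directs a phosphatase to the translation factor eIF2α. Its retinal level was 15.8 to 21.0 CPM in Efemp1ki/ki and 16.1 to 26.5 CPM in wild type, with a log2 fold change of -0.25 ± 0.06 in the retina (adjusted p = 0.0481) and 0.51 ± 0.11 in the eyecup (adjusted p = 0.0046), where 317 genes (1.65%) passed in the joint fit. Its eyecup level on the joint scale averaged 62.5 ± 18.4 CPM in Efemp1ki/ki (n = 7), against 43.4 ± 7.54 CPM in wild type (n = 8). The difference, -0.77 ± 0.15 (adjusted p = 0.0297), did not pass with the 4 groups of 17 months alone or with GC offsets. On the joint scale C3 averaged 224 CPM in Efemp1ki/ki eyecups and 192 CPM in wild-type eyecups, against 9.24 and 5.00 CPM in the retinas. Aebp1, described below, averaged 149 and 141 CPM in the eyecups, against 14.1 and 9.10 CPM in the retinas, in the same order. Whether eyecup RNA carried into the retinas added to these retinal differences was not tested.

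The other genes that rose with the smallest p-values were of several kinds. Aebp1, which encodes a secreted collagen-binding protein of the matrix, had 12.4 to 21.8 CPM (median 14.7) in Efemp1ki/ki and 8.12 to 11.9 CPM (median 10.4) in wild type. Its groups did not overlap, as for 9 higher genes of all tested (0.0522%), and the log2 fold change was 0.63 ± 0.13 (edgeR, adjusted p = 0.0377). Aebp1 was highest in Efemp1ki/ki libraries 4 and 6, the same 2 that were highest in C4b, C3 and Efemp1 itself. At 3 months its means were 8.46 ± 1.91 CPM in Efemp1ki/ki, against 7.50 ± 1.61 CPM in wild type, and at 9 months 12.4 ± 2.55 CPM in Efemp1ki/ki, against 10.4 ± 1.34 CPM in wild type, with log2 fold changes of 0.22 ± 0.14 and 0.25 ± 0.13 that did not pass.

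Col9a3 and Col4a5, which encode collagen chains, also rose. Col9a3, a chain of collagen IX, had 19.6 to 34.3 CPM (median 23.2) in Efemp1ki/ki and 16.3 to 21.5 CPM (median 18.3) in wild type, a log2 fold change of 0.45 ± 0.10 (edgeR, adjusted p = 0.0415). In all, 6 of the knock-in retinas lay above every wild-type one. Efemp1ki/ki libraries 6 and 4 were again the highest, at 34.3 and 32.1 CPM, and the other knock-in retinas had 19.6 to 24.7 CPM. Col4a5, a chain of the collagen IV network of basement membranes, had 38.6 to 47.1 CPM (median 43.5) in Efemp1ki/ki and 28.4 to 40.4 CPM (median 36.5) in wild type, at 0.30 ± 0.07 (adjusted p = 0.0428). It was the 1 member of the 22 tested in the basement membrane and Bruch membrane list that passed; 21 of the 22 had positive values, with a median of 0.13, and 6 were higher at an unadjusted p under 0.05, beside 7.04% of all genes. Without wild-type library 4 it was 3, beside 5.90%, and with the composition covariates 2.

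The other named risers differed by less. Med23 and Eaf1, which encode a Mediator subunit and a factor bound to the elongation factor ELL, had log2 fold changes of 0.18 ± 0.04 and 0.20 ± 0.04. Trim25, a ubiquitin ligase of antiviral RNA sensing, was at 0.21 ± 0.05, and Zfp169, a zinc finger gene, at 0.26 ± 0.06. Slc31a2, encoding a copper transporter, Prosc, encoding a pyridoxal phosphate-binding protein, and Glb1l, related to beta-galactosidase, were at 0.19 ± 0.04, 0.20 ± 0.05 and 0.21 ± 0.05. The pseudogene Kpna2-ps, whose reads may stem from its parent gene, was at 0.42 ± 0.10 (edgeR, adjusted p = 0.0415 for each of these 8). Among them Med23 and Glb1l showed 7 knock-in retinas above all wild-type ones, and Zfp169 showed 3.

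Ifi47 and Bace2 rose by more, on fewer counts. Ifi47, an interferon-induced GTPase, had 0.668 to 4.67 CPM (median 1.32) in Efemp1ki/ki and 0.373 to 1.32 CPM (median 0.683) in wild type, with 4 knock-in retinas above all wild-type ones. Its log2 fold change was 1.37 ± 0.33 (edgeR, adjusted p = 0.0415). Efemp1ki/ki libraries 5 and 6, which stood high in interferon-induced genes, held 4.67 and 3.43 CPM, and the other knock-in retinas 0.668 to 1.46 CPM. Ifi47 passed in 5 of 13 alternatives and in 5 of the 16 fits without 1 library. Bace2, encoding an aspartyl protease related to the beta-secretase, had 2.71 to 7.79 CPM (median 5.11) in Efemp1ki/ki and 1.57 to 3.85 CPM (median 2.17) in wild type, at 1.03 ± 0.25 (adjusted p = 0.0438). Its highest values were those of Efemp1ki/ki libraries 4 and 6, 7.79 and 7.40 CPM.

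Prss56 fell most. It encodes a serine protease made in the mouse retina by Mueller glia and needed for normal eye growth. The Efemp1ki/ki libraries had 16.04 to 27.2 CPM (median 22.2), against 22.9 to 81.5 CPM (median 46.9) in wild type. The wild-type group was the more spread: its libraries 8 and 1, at 22.9 and 26.7 CPM, lay within the knock-in range, and its library 6 was the highest. The log2 fold change was -1.03 ± 0.24 (edgeR, adjusted p = 0.0415). At 3 months the means were 16.9 ± 4.80 CPM in Efemp1ki/ki, against 18.03 ± 6.28 CPM in wild type, and at 9 months 19.5 ± 8.74 CPM in Efemp1ki/ki, against 22.5 ± 8.06 CPM in wild type.

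Mapt, Lrrn2 and Gap43 fell by smaller amounts. Mapt, encoding the microtubule-binding protein tau, had 202 to 219 CPM (median 212) in Efemp1ki/ki and 220 to 254 CPM (median 237) in wild type. Its groups did not overlap, as for 10 lower genes of all tested (0.0580%), and the log2 fold change was -0.15 ± 0.03 (edgeR, adjusted p = 0.0279). Lrrn2, encoding a leucine-rich repeat protein of neurons, had 16.3 to 18.1 CPM (median 17.0) in Efemp1ki/ki and 19.1 to 25.4 CPM (median 21.0) in wild type. It too was separate between groups, at -0.32 ± 0.06 (adjusted p = 0.0255). Gap43, an axonal growth protein, had 16.6 to 22.7 CPM (median 19.0) in Efemp1ki/ki and 21.0 to 24.9 CPM (median 22.9) in wild type, at -0.27 ± 0.06 (adjusted p = 0.0415). Of its knock-in libraries 7 lay below all wild-type ones and library 7 did not.

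Further genes fell by similar amounts. Syn1, encoding the vesicle protein synapsin I, and Tprgl, encoding a presynaptic vesicle protein, had log2 fold changes of -0.19 ± 0.04 and -0.15 ± 0.03. Rab3a, a vesicle GTPase, Nsf, an ATPase of membrane fusion, and Ina, a neurofilament protein, which were picked after their values were seen, were at -0.22 ± 0.05, -0.14 ± 0.03 and -0.18 ± 0.04 (adjusted p = 0.0438 for Nsf). Rab3ip, which activates Rab GTPases in cilium assembly, was at -0.17 ± 0.04 with no overlap between groups. Nxnl2, a thioredoxin-like gene that supports photoreceptors in mice, was at -0.30 ± 0.06, and Rgs16, a regulator of G protein signalling, at -0.21 ± 0.05 (edgeR, adjusted p = 0.0415 for each gene named here other than Nsf).

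The remaining lower genes of the named set were B3gnt9, a glycosyltransferase gene, at -0.43 ± 0.10, Mgst3, a microsomal glutathione transferase gene, at -0.33 ± 0.08, Magee1 at -0.17 ± 0.04 and Tcerg1l at -0.47 ± 0.12 with no overlap between groups (edgeR, adjusted p = 0.0481 for Tcerg1l and 0.0415 for the others). The 39 lower genes had a median GC content of 53.5%, against 49.7% over the 31 higher genes and 49.5% over all genes tested. With GC offsets for each library 255 genes passed, 67 of the 70 among them. Wild-type library 2, which stood apart, had the highest values of Mapt, Lrrn2 and Rab3ip, and without it and the 2 retinas that stood apart at younger ages, C4b alone passed (0.00578%).

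Read against the younger retinas, 65 of the 70 genes (92.9%) had the same sign at 3 months and 55 (78.6%) at 9 months. Over all 17240 genes these shares were 69.3% and 51.5%. Of the 70, 12 passed at 3 months, all with the same sign, beside 1.83% of all genes, and none at 9 months, where no gene passed by edgeR and 1047 genes (6.07%) had an unadjusted p under 0.05. Nr4a1 was among the 12.

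Nr4a1 encodes an orphan nuclear receptor whose transcription is induced within minutes by neuronal activity and stress. It had 27.1 to 49.8 CPM (median 34.3) in Efemp1ki/ki and 19.8 to 32.5 CPM (median 23.5) in wild type. The groups overlapped, with 4 knock-in retinas above all wild-type ones, and the log2 fold change was 0.58 ± 0.14 (edgeR, adjusted p = 0.0415). At 3 months its mean was 40.8 ± 9.24 CPM in Efemp1ki/ki, against 23.4 ± 4.40 CPM in wild type. At 9 months the means were 22.8 ± 3.72 CPM in Efemp1ki/ki, against 20.5 ± 3.47 CPM in wild type.

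Nr4a1 was the 1 called member of 21 tested immediate early genes; 8 were higher and 1 was lower at an unadjusted p under 0.05, beside 7.04% of all genes higher and 8.18% lower, and the list's median was 0.08. Without Efemp1ki/ki library 5 alone 5 were higher at that level, beside 5.68% of all genes, and without the 3 libraries that stood high in interferon genes 4, beside 4.60%. Egr1, a zinc finger factor, had 30.6 to 84.4 CPM (median 49.2) in Efemp1ki/ki and 6.31 to 44.2 CPM (median 18.9) in wild type, a log2 fold change of 1.27 ± 0.37 (edgeR, adjusted p = 0.0944). Fos, a subunit of AP-1, was at 0.79 ± 0.23 (adjusted p = 0.0944), and Sik1, a kinase induced by cyclic AMP, at 0.43 ± 0.11 (adjusted p = 0.053). Within wild type these genes were uneven. Egr1 had 41.6 and 44.2 CPM in wild-type libraries 7 and 8, and 6.31 to 27.8 CPM in the other wild-type libraries. The same 2 libraries were the highest of wild type in Fos (22.7 and 23.3 CPM), Sik1 (15.8 and 14.6 CPM) and Nr4a1 (32.5 and 30.0 CPM). The source of this unevenness was not tested.

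Promoters are shown for 3 genes that stand for the groups described, from 250 bases before to 50 after the transcription start, read from RefSeq on GRCm38.p6. In them 4 motifs were searched on both strands, which were chosen with earlier results known: the interferon-stimulated response element, here GAAA followed by any 2 bases and GAAA again, the half-site TGACG of the cyclic AMP response element, the AP-1 site TGANTCA and the E-box CACGTG. They occurred in the promoters of 3.99%, 23.05%, 8.97% and 8.09% of 27025 genes. The Nr4a1 promoter (chr15:101266596-101266895, plus strand) held 4 half-sites, in capitals, all read from the reverse strand; 11 of the 15 immediate early genes with a promoter in the table held at least 1. The Ifit1 promoter (chr19:34640639-34640938, plus strand) held 2 interferon elements, in capitals, also read from the reverse strand; 10 of 17 interferon response genes held at least 1, and 0 of 9 complement component genes did. The C3 promoter (chr17:57228087-57228386, minus strand) held none of the 4 motifs within this window. A match is a run of letters and not a measured binding site.
Nr4a1: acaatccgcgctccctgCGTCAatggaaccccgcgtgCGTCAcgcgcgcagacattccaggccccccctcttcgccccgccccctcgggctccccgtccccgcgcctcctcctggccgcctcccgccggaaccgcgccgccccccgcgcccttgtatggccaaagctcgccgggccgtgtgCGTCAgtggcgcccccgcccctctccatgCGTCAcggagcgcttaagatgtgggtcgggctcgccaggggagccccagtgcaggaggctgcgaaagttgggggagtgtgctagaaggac
Ifit1: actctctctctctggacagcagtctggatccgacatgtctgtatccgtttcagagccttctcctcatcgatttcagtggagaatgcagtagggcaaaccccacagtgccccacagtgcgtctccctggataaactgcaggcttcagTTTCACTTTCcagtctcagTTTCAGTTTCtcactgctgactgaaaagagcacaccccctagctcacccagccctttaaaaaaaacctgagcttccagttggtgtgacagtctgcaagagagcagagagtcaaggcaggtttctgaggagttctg
C3: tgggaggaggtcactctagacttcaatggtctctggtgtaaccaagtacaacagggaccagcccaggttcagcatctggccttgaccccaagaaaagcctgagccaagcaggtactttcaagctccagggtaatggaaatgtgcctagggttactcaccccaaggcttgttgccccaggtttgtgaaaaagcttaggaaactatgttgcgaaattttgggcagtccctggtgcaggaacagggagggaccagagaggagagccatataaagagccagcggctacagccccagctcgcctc

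Interferon-induced genes were highest in 2 of the 8 knock-in libraries. In the interferon response list all 21 members tested had a positive log2 fold change, yet none passed. The list's median was 0.54, beside -0.11 at 3 months and 0.66 at 9 months. At an unadjusted p under 0.05, 16 of the 21 were higher and none lower, beside 7.04% of all genes that were higher. Without Efemp1ki/ki library 5 alone it was 7 of the 21, beside 5.68%. Ifit1, an antiviral RNA-binding protein gene, had 3.96 to 42.9 CPM (median 5.45) in Efemp1ki/ki and 3.35 to 6.80 CPM (median 4.36) in wild type. Efemp1ki/ki libraries 5 and 6 held 42.9 and 24.3 CPM, and the other 6 knock-in retinas held 3.96 to 7.47 CPM. Its log2 fold change was 1.45 ± 0.42 (edgeR, adjusted p = 0.0944).

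Usp18, which removes the ubiquitin-like ISG15 from proteins, followed the same libraries, with 14.9 and 8.99 CPM in Efemp1ki/ki libraries 5 and 6, a range of 2.51 to 14.9 CPM (median 2.87) in Efemp1ki/ki and of 1.68 to 4.02 CPM (median 1.94) in wild type. Wild-type library 5 was the highest of its group. The log2 fold change was 1.24 ± 0.35 (edgeR, adjusted p = 0.0912). Rsad2, encoding viperin, was at 1.54 ± 0.44 and Stat2, a transcription factor of the interferon pathway, at 0.21 ± 0.06 (adjusted p = 0.0912 and 0.0944).

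The mean of the interferon list in log2 CPM was 4.39 and 3.80 in Efemp1ki/ki libraries 5 and 6, 2.59 to 3.15 in the other 6, and 2.42 to 3.27 in wild type. In a fit chosen after the data were seen, without these 2 and wild-type library 5, the list's median was 0.22, and 1 of 21 members was higher at an unadjusted p under 0.05, where 4.60% of all genes were. C4b still passed in that fit, as the only gene (0.00575%). In the same fit 8 of the 14 complement components were higher at an unadjusted p under 0.05 and the median was 0.25. In the fit with all libraries, 0 of 18 antigen presentation genes passed, 7 were higher at an unadjusted p under 0.05, beside 7.04% of all genes (4 of 18 without Efemp1ki/ki library 5), and Cd74, the invariant chain, was at 0.64 ± 0.25 (adjusted p = 0.196).

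**Figure D4:**
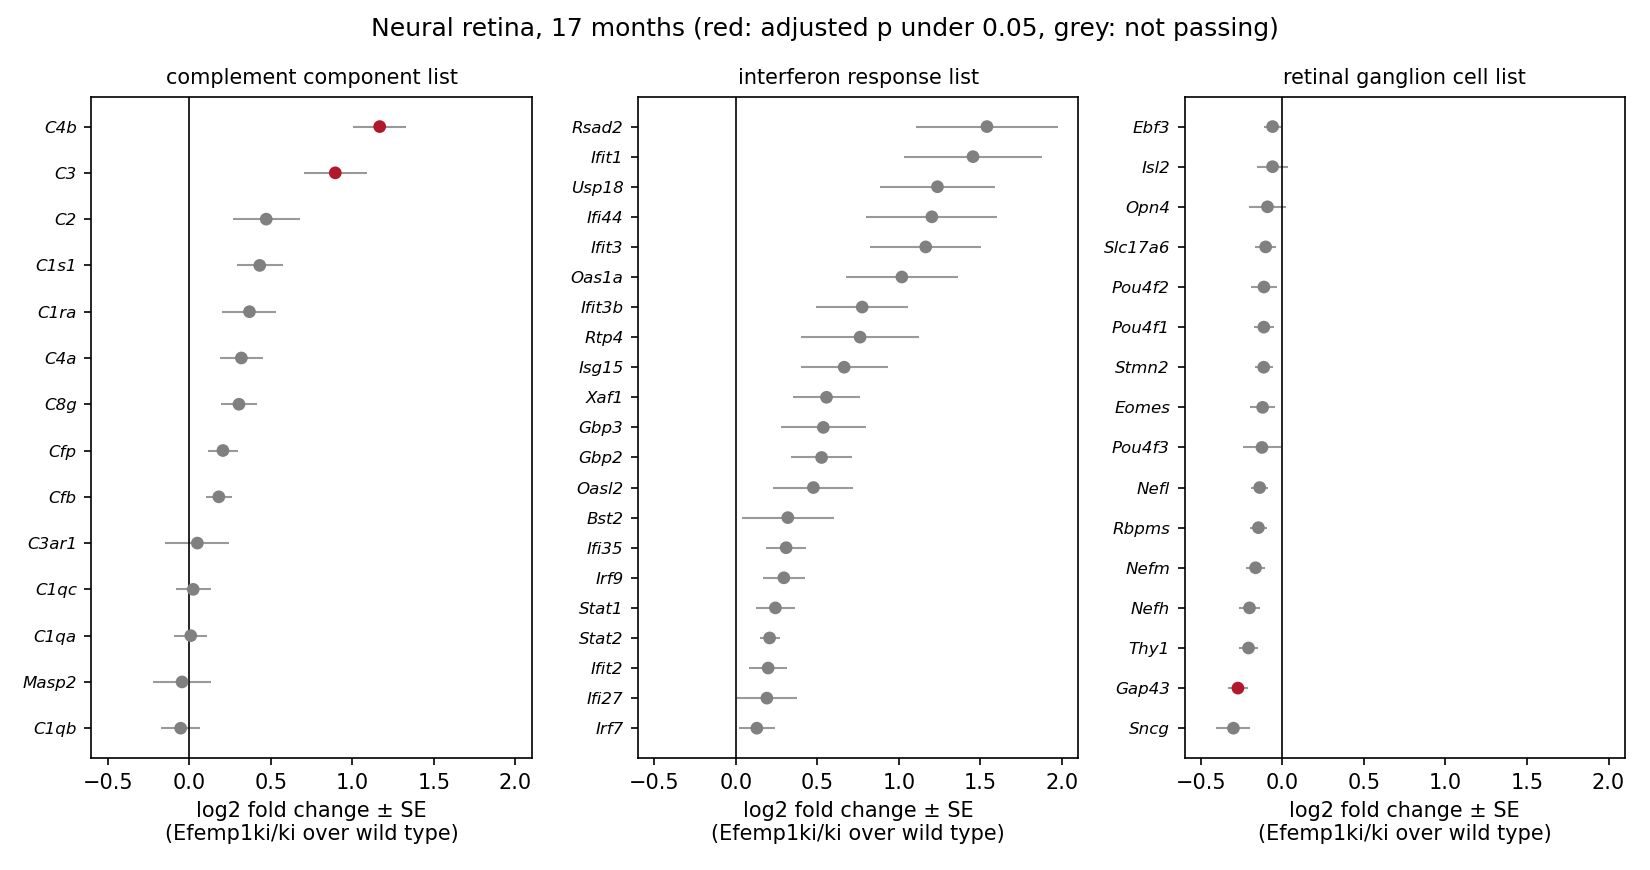
Log2 fold change (Efemp1ki/ki over wild type) with its SE for the tested members of 3 gene lists in 17-month retinas; red members passed an adjusted p under 0.05 and grey ones did not. C4b and C3 lead the complement components, all 21 interferon genes are positive with wide errors, and all 16 ganglion cell genes are negative, with Gap43 as the one that passed.

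Of the cell type lists, that of the ganglion cells alone held a called gene. Gap43 fell, 1 of 16 members tested, and all 16 had a negative log2 fold change. The list's median was -0.12, beside -0.10 at 3 months and -0.06 at 9 months. At an unadjusted p under 0.05, 8 were lower and none higher, where 8.18% of all genes were lower. Wild-type library 2 had the highest Thy1 and Nefh of its group, and without it 15 of the 16 were negative, none passed and 7 were lower at an unadjusted p under 0.05, beside 5.35% of all genes. Without the 3 libraries high in interferon genes 5 were lower at that level, beside 4.88%, and none passed. Gap43 passed in 8 of the 14 alternatives and in 4 of the 16 fits without 1 library. Thy1, a surface glycoprotein of ganglion cells, had 109.7 to 146 CPM (median 137) in Efemp1ki/ki and 135 to 190 CPM (median 150.1) in wild type, at -0.21 ± 0.06 (edgeR, adjusted p = 0.0841). Nefh, the heavy neurofilament chain, was at -0.20 ± 0.07 and Sncg, gamma-synuclein, at -0.30 ± 0.10 (adjusted p = 0.131 and 0.152). In bulk tissue, fewer cells of a type and less RNA per cell cannot be told apart.

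No gene passed in the lists of rods, cones, bipolar cells, amacrine cells, horizontal cells, Mueller glia, astrocytes, microglia or endothelium. Their median log2 fold changes lay between -0.09 and 0.06. Negative values prevailed among amacrine (14 of 16), bipolar (14 of 18), Mueller glia (13 of 16) and rod genes (15 of 19). At an unadjusted p under 0.05, 6, 4, 4 and 4 of these were lower, beside 8.18% of all genes, and 1 rod gene was higher. Negative were also 7 of 12 cone, 5 of 9 horizontal cell, 11 of 17 endothelium, 4 of 9 astrocyte and 3 of 16 microglia genes. In these lists, 3 astrocyte genes and 1 cone gene were higher at an unadjusted p under 0.05, beside 7.04% of all genes. Lower at that level were 2 endothelium genes and 1 gene each of the cone, horizontal cell and astrocyte lists. Among Mueller glia genes, Hes5, a Notch target, was at -0.37 ± 0.10 and Rlbp1, a retinoid-binding protein gene, at -0.16 ± 0.04 (edgeR, adjusted p = 0.0841 and 0.0843). Gfap, the intermediate filament raised in reactive glia, had 13.0 to 28.1 CPM (median 17.1) in Efemp1ki/ki and 13.0 to 18.8 CPM (median 14.2) in wild type, at 0.36 ± 0.14 (adjusted p = 0.184). In the reactive gliosis list C3, also counted above as a complement component, was the 1 of 21 that passed, beside 0.180% of all genes higher. Of the 21, 18 had a positive log2 fold change, with a median of 0.11. At an unadjusted p under 0.05, 5 were higher and 1 was lower, beside 7.04% and 8.18% of all genes. The summed microglia and macrophage genes ran from 127 to 186 CPM in Efemp1ki/ki and from 122 to 175 CPM in wild type.

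Genes of energy metabolism and of the ribosome had mostly negative log2 fold changes, and none passed. In nuclear oxidative phosphorylation all 33 members tested were negative, with a median of -0.08, and 10 were lower at an unadjusted p under 0.05, beside 8.18% of all genes. In glycolysis 18 of 21 were negative and 9 were lower at that level, with Eno2, neuronal enolase, at -0.13 ± 0.04 (edgeR, adjusted p = 0.098). Of 27 cytosolic ribosomal protein genes 25 were negative and 7 were lower at that level, with a median of -0.09. These counts moved with single libraries. Without wild-type library 2 they were 3 for oxidative phosphorylation, 6 for glycolysis and 0 for the ribosome, beside 5.35% of all genes, and without wild-type library 3 they were 17, 12 and 15, beside 9.66%. The unfolded protein response, with 0 of 26 lower or higher even at an unadjusted p, and the visual cycle, with none of 14 called, had medians of -0.0035 and 0.015.

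Transcripts of neighbouring tissues varied between libraries, with medians higher in Efemp1ki/ki for some lists and lower for others. Retinal pigment epithelium genes summed to 169 to 393 CPM (median 248) in Efemp1ki/ki and 196 to 297 CPM (median 218) in wild type, and 10 of 11 tested had a positive log2 fold change, with a median of 0.41. Melanocyte genes summed to 62.7 to 261 CPM (median 199.6) in Efemp1ki/ki and 45.3 to 217 CPM (median 100.7) in wild type, with a median log2 fold change of 0.70. Lens genes summed to 30.9 to 197 CPM (median 37.6) in Efemp1ki/ki and 31.7 to 40.8 CPM (median 36.5) in wild type, and Crygc and Cryge had no count in any of the 16 libraries. Corneal and conjunctival genes summed to 21.2 to 251 CPM (median 27.7) in Efemp1ki/ki and 21.9 to 69.8 CPM (median 26.9) in wild type. Genes of the sclera and choroid stroma summed to 219 to 329 CPM (median 273) in Efemp1ki/ki and 187 to 272 CPM (median 237) in wild type. The median sum was lower in Efemp1ki/ki for ciliary body and iris epithelium, at 415 CPM in Efemp1ki/ki, against 426 CPM in wild type, for pericytes and smooth muscle, at 810.2 CPM in Efemp1ki/ki, against 854 CPM in wild type, and for skeletal muscle, at 15.9 CPM in Efemp1ki/ki, against 18.7 CPM in wild type. No member tested in these lists passed.

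With the levels of pigment epithelium, lens and rod genes as covariates, 15 genes passed (0.0870%), of which 14 were among the 70. C4b was then at 1.17 ± 0.17 and C3 at 0.91 ± 0.20 (edgeR, adjusted p = 0.000539 and 0.0506). Without the 2 Efemp1ki/ki libraries highest in lens or corneal genes, a fit chosen after the data were seen, C4b was at 1.18 ± 0.17 and was the only gene that passed (0.00575%).

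**Figure D5:**
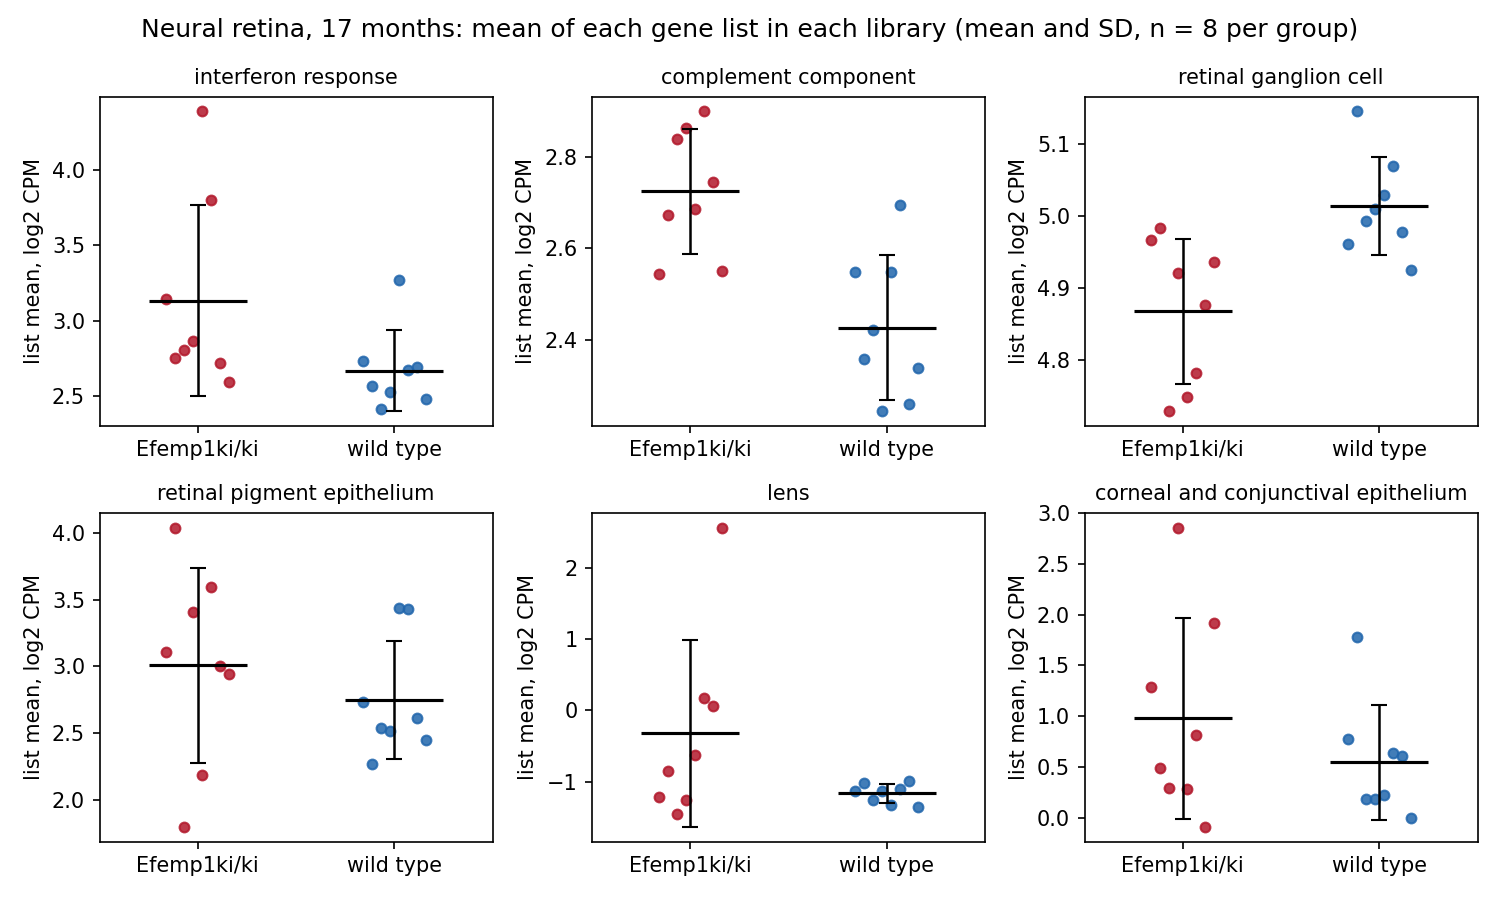
Mean of each gene list in log2 CPM in each 17-month retina, Efemp1ki/ki in red and wild type in blue, with the mean and SD of each group (n = 8); the vertical axes do not start at zero. In the interferon list 2 knock-in libraries lie far above the rest, and in the lens list 1. The corneal list is graded, at 2.86 and 1.91 in Efemp1ki/ki libraries 4 and 8 and 1.78 in wild-type library 2. The complement and ganglion cell lists shift as groups that overlap.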

How the data were processed

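RNeasy micro columns with DNase I treatment and the TruSeq Stranded mRNA kit were used, per the labels' protocols. The submitters' processing notes name build GRCm38.p4; aligner, counter and annotation were not given in the sources used here. Expression was deposited by the authors as estimated counts per gene, rounded here. The TPM values that the authors deposited sum to more than that unit allows in each library, so they count as a score and serve 1 alternative alone. Left out was 1 column per file whose name no label holds.

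Genes were kept by filterByExpr, 17240 of 30235, scaled by TMM and fitted with edgeR 4.0.16 (R 4.3.3; robust quasi-likelihood) over all 48 retinas in their 6 groups. A joint fit of all 93 libraries tested tissue differences on 19210 genes. Calls are Benjamini-Hochberg adjusted p under 0.05. SE values came from the F statistic. The closest pair of libraries in a group differed 3.32 times more than sampling noise (chi-square per degree of freedom). Reads are not independent molecules.

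Named were Efemp1, Cfb, the 12 smallest p-values and 4 largest fold changes per direction among called genes with a named gene at a mean log2 CPM no lower than 0, called members of lists, and the 4 smallest p-values per list. Members, lists and tests were chosen with earlier results of these data known. Genes outside the rule are marked in the text or listed here. Also outside it were the complement genes C1ra, C1qa, C1qb, C1qc, C2 and Cfp, and the lens genes Crygc and Cryge. Ppp1r15a was named because it passed the test of a tissue difference. Alternatives were RLE scaling, no filter, only the groups compared, covariates, GC offsets (spline with 5 degrees of freedom), the replicate number as a block, leaving out libraries, limma 3.58.1 (voom, and log2(TPM + 1)) and DESeq2 1.42.0. On simulated counts of 17129 genes for this comparison, the fit recovered 40% of 1.15-fold, 64% of 1.25-fold, 84% of 1.5-fold and 100% of 2-fold changes, with 6 unchanged genes called. The changes were placed only in genes above a floor of counts, and each gene was drawn independently. Deviations shared by many genes of a library were not simulated, so these figures do not give the power or error rate in the real libraries.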

Additional observations from a re-analysis of the deposited data

Results flagged for a closer look

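Among 94 groups of 8 values examined, 10 held a library separated from its group by more than Dixon's 95% limit allows, and chance flags about 1 in 20 groups. Wild-type library 5 was high in interferon-induced genes, with Usp18 at 4.02 CPM beside 2.20 CPM for the next library, Ifit1 at 6.80 CPM beside 4.81 CPM, and an interferon list mean of 3.27 log2 CPM beside 2.73. The same library had the highest wild-type Gfap, 18.8 CPM beside 15.6 CPM. Stat2 was high in Efemp1ki/ki library 5, at 97.4 CPM beside 76.0 CPM.

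Wild-type library 2 was high in ganglion cell genes, with Thy1 at 189.8 CPM beside 159 CPM and Nefh at 111 CPM beside 93.8 CPM, and in the corneal and conjunctival list, with a mean of 1.78 log2 CPM beside 0.78. Efemp1ki/ki library 8 had a lens list mean of 2.56 log2 CPM beside 0.18. Wild-type library 1 held 37475492 estimated counts, beside 22789511 for the next deepest of its group.

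The genotype difference of Ppp1r15a at 17 months differed between tissues by a test of the difference itself, retina minus eyecup, at -0.77 on the log2 scale (edgeR on both tissues, adjusted p = 0.0297).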

How the results depend on the processing

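The count of 70 called genes was 66 with RLE scaling and 76 with the replicate block. It was 3 with no filter beyond 1 read, 15 with composition covariates, and 1 with limma voom, with the 2 groups alone, without the libraries that stand apart, without the 3 libraries highest in interferon genes and without the 2 highest in lens or corneal genes. It was 255 with GC offsets, 258 with GC offsets and the replicate block, 194 with GC offsets and covariates, 270 by DESeq2 and 682 on log2(TPM + 1), where 84.9% were higher, against 44.3% of the 70. Without 1 library it was 1 to 203. The causes were not tested.

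Deviations of same-numbered retinas correlated at -0.18 to 0.08, so they gave no sign that the replicate numbers pair the retinas. Whether same-numbered retinas and eyecups came from the same mouse was not tested. The main joint fit treated them as independent. Of the 70 genes, 61 passed with the block.

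Complement components that passed numbered 2, but 1 with no filter, covariates, voom, the 2 groups alone and each of the 3 fits without sets of libraries, 5 on TPM, and 1 to 2 without 1 library. For the tissue difference, 1 gene passed, but 2 with RLE scaling, 2 with the replicate block, 0 with the 4 groups of 17 months alone, 0 with GC offsets and 14 by DESeq2. The medians of the interferon, complement and ganglion cell lists kept their sign throughout. Of the genes named, the 31 chosen by rank or call kept their direction in all 30 alternatives, as did 26 of the other 29. The exceptions were C1qa, C1qb and C1qc, all near zero, which changed sign in 7, 3 and 5 of them. The alternatives reuse the same libraries, so a kept direction is no independent check. Levels near 1 CPM, such as those of Ifi47, rest on few reads.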
